A study of Mus musculus with 25 samples.

Results

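The 25 BXD strains of the series were split by the level of 1 pseudogene, Gm12892 (ENSMUSG00000083679, chromosome 4), in their dorsal root ganglia. Strains with a value under 100 formed the low group (13 strains) and strains with a value of 100 or more the high group (12 strains), so that all 25 of 25 strains were used. The groups were thus chosen by a measured value, the Gm12892 level, and not by a label, and the level of Gm12892 itself is described without a test. The question was which other genes differed between the strains on the 2 sides, and whether these lay near Ckb on chromosome 12, the gene of which Gm12892 is a copy.

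Dorsal root ganglia hold the cell bodies of the sensory neurons of the body, with satellite glia and Schwann cells around them. The mice of every strain were 8 weeks old, and each strain was a recombinant inbred line bred from C57BL6/J and DBA2/J, so that nearly every locus is homozygous for the allele of 1 parent. Each strain had 1 RNA-seq library, from a kit that does not mark the strand. The low group held 9 strains whose names end in TyJ (BXD1, BXD2, BXD5, BXD13, BXD14, BXD21, BXD34, BXD36 and BXD42) and 4 that end in RwwJ (BXD55, BXD60, BXD68 and BXD87). The high group held 7 TyJ strains (BXD6, BXD9, BXD11, BXD15, BXD16, BXD28 and BXD40) and 5 RwwJ strains (BXD44, BXD48, BXD73, BXD77 and BXD89). The ending is the laboratory code of the line. Neither the animals' sex nor how many were pooled into a library is stated in the sources used here. Neither parent strain was analysed here, so which parent's allele goes with which level was not tested. With 1 library a strain, a p-value measures differences against the spread between strains, which holds genotype, animal, dissection and library together.

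The libraries totalled 24637919 to 26860283 scaled counts, which are read counts brought to a common upper quartile. The estimated depth was 20020000 to 40150000 reads in the 23 libraries where it could be estimated, with a median of 23015000 in the low group and 22960000 in the high group. Markers of the labelled tissue were high in all strains: the neuronal tubulin gene Tubb3 lay between 70436 and 109907 scaled counts, the satellite glia gene Fabp7 between 3046 and 19877, and the myelin gene Pmp22 between 35159 and 75283. Genes of the spinal cord had higher values in more of the high than of the low strains, although none of them passed the test. The summed level of the 8 spinal cord markers was 363 to 2482 in the low group (median 488) and 247 to 13738 in the high group (median 2660.5), and was highest in BXD48. In bulk tissue, more cells of a type and more RNA per cell cannot be told apart.

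Ckb encodes the brain-type creatine kinase, a cytosolic enzyme that moves phosphate between ATP and creatine and so buffers the energy supply of neurons and glia. A processed pseudogene such as Gm12892 arises when a messenger RNA is copied back into DNA and inserted elsewhere in the genome, without introns. Reads from such a copy and from its parent gene are hard to separate where the sequences are the same.

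The likeness of the copy to the gene was measured on the transcripts of the GENCODE M21 release. Ckb (ENSMUSG00000001270) has 8 exons and a coding sequence of 1146 bases, and Gm12892 is 1146 bases long in 1 piece. Over 1149 aligned positions the sequences had 31 mismatches and 6 gap bases, an identity of 96.8%. Of all annotated transcripts, Ckb was the closest to Gm12892. The next were Ckb-ps2 (87.3% identity) and Ckb-ps1 (85.6%), 2 pseudogenes on chromosome 17 that the expression table did not list. The first 240 bases of both are shown because they hold 11 of the differences, written in capitals, and the first stop codon in frame of the copy.
Ckb: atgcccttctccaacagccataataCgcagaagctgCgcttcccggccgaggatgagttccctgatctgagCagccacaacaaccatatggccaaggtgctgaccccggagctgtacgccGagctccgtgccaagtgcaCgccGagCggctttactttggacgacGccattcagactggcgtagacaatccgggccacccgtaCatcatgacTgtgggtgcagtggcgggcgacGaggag
Gm12892: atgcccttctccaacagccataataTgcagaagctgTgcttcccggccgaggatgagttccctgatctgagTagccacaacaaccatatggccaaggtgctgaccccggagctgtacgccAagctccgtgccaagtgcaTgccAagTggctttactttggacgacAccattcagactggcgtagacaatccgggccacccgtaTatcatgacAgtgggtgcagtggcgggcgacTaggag
Both run 5′ to 3′ from the start codon. The last capital of the copy belongs to codon 79, which is a stop codon there, while Ckb reads on to its stop at codon 382. The differences were unevenly spread: 32 fell in the first 650 aligned positions and 5 in the rest. The longest identical run was 250 bases, from base 695 to base 944 of the Ckb coding sequence. A stretch of 50 bases taken at any position of the alignment was free of differences in 28.1% of cases, and a stretch of 100 bases in 14.4%. At most 2 differences lay in 77.5% of the stretches of 50 bases. A read of such a length from one locus could be listed under the other, and the values of Ckb and Gm12892 are uncertain for that reason.

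Gm12892 lay at 2 levels with nothing between them. The low strains had 6 (BXD1, BXD14, BXD42 and BXD55), 7 (BXD13, BXD36, BXD60 and BXD68), 8 (BXD2), 9 (BXD5), 10 (BXD34), 12 (BXD21) and 13 (BXD87) scaled counts. The high strains had 576 (BXD16), 591 (BXD28), 594 (BXD15), 639 (BXD11), 653 (BXD44), 665 (BXD89), 669 (BXD9), 698 (BXD73), 748 (BXD6), 792 (BXD48), 824 (BXD40) and 865 (BXD77). The values nearest the threshold were 13 below it and 576 above it, so any threshold from 50 to 300 gave the same groups. The group means were 8.0 ± 2.35 (SD, n = 13) and 692.8 ± 95.0 (SD, n = 12), as the rule fixed them.

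Ckb was abundant in all strains, whatever the level of the copy. It lay between 14942 and 21840 scaled counts in the low group (median 18308) and between 11922 and 19057 in the high group (median 15870). The lowest value was that of BXD15 and the highest that of BXD36, and the groups overlapped over most of their range. The mean was 17930 ± 2065 (SD, n = 13) against 15700 ± 2020 (SD, n = 12), a log2 difference of -0.19 ± 0.07 (SE). This difference had an unadjusted p of 0.0114 in the limma fit and 0.0121 in a two-sided permutation test with 100000 resamples, and an adjusted p of 0.968 over all genes, so Ckb did not pass the test. Because the values may share reads, it is a description and not independent of the split. When the Gm12892 value was added to the Ckb value of each strain, the means were 17940 and 16390, a log2 difference of -0.13. That sum holds the value that set the groups, so it is given with no test.

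The values of Ckb were also compared within each set of lines. In the TyJ strains the mean was 18210 ± 2031 (SD, n = 9) in the low group and 14650 ± 1714 (SD, n = 7) in the high group, a log2 difference of -0.32. In the RwwJ strains the means were 17300 ± 2297 (SD, n = 4) and 17170 ± 1480 (SD, n = 5), a difference of -0.01. The test of the difference between the sets gave 0.31 ± 0.14 (SE, limma unadjusted p = 0.0349, adjusted p = 0.9999 over all genes), so it did not pass the threshold. Ckb may share reads with Gm12892, which set the groups, so this too is a description and not independent of the split.

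The level of the copy was a small share of the level of Ckb. Gm12892 amounted to 0.0312% to 0.0749% of Ckb in the low group and to 3.84% to 5.35% in the high group. Within each side of the split the values were compared as a description, with no test, since Gm12892 chose the groups. Among the 12 high strains Pearson's r between Gm12892 and Ckb was 0.765 and Spearman's rho 0.678. Without BXD15 and BXD77, the strains farthest from the median, r was 0.622. Among the 13 low strains r was -0.03 and rho 0.06. Their Gm12892 values were whole numbers from 6 to 13, near the floor, which leaves little range for a correlation to show. Within the 7 TyJ strains of the high group r was 0.678, and the 5 RwwJ strains of that group were fewer than the 6 taken as the least for a correlation. Both measures come from the same libraries and may share reads.

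**Figure D1:**
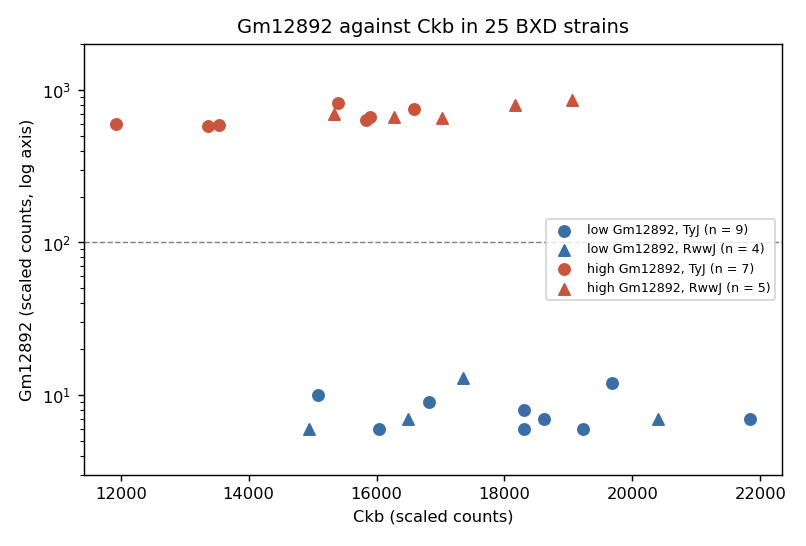
Scaled counts of Gm12892 (vertical, log axis) against scaled counts of Ckb (horizontal) in the 25 strains, 1 point a strain; circles are TyJ strains, triangles RwwJ strains, and the dashed line is the threshold of 100. The low strains lie at 6 to 13 and the high strains at 576 to 865, while their Ckb values overlap.

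Few genes followed the split. Of 16151 other genes tested with limma, 4 passed an adjusted p of 0.05 (0.0248%): 1 was higher in the high group (0.00619%) and 3 were lower (0.0186%). An unadjusted p under 0.05 was reached by 752 genes (4.66%), 436 of them higher (2.7%) and 316 lower (1.96%) in the high group. The median log2 difference of all genes was -0.00062, and no gene had groups without overlap (0%). Of the 4 genes, 3 lay on chromosome 12, and the other was an identifier without an annotation entry, which is counted and not named (31 to 53 scaled counts in the low group, 13 to 39 in the high group, log2 difference -1.07 ± 0.15, adjusted p = 0.00092 in limma).

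Ighg2c, the constant region gene of an immunoglobulin G heavy chain, was lower in the strains with high Gm12892 and was the gene most like it. As background, C57BL/6 mice carry Ighg2c where some other strains carry Ighg2a in its place. Of the low strains, 12 had 127 to 560 scaled counts and BXD87 had 2 (median 247). Of the high strains, 11 had 1 to 4 and BXD77 had 16 (median 2). BXD87 was thus the only strain on the wrong side of the best single threshold for Ighg2c, and no other gene had as few as 1 such strain, the median gene having 9. At most 3 such strains were found for 16 genes (0.0991%), 6 of them on chromosome 12, and at most 4 for 91 genes (0.563%). The log2 difference was -5.72 ± 0.55 (SE, adjusted p = 1.42e-06 in limma).

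Other immunoglobulin and B cell genes were also listed at lower values, without passing the test. This list was added after the values were seen. Of its 12 genes 7 were tested, 7 of 7 had negative differences, 3 had an unadjusted p under 0.05 and 1, Ighg2c, passed. Over all genes 4.66% had an unadjusted p under 0.05 and 0.0248% passed. Ighg2c and Ighm are both among the 3 and, as adjacent genes, are not independent. Ighm, the heavy chain of immunoglobulin M and the next measured gene after Ighg2c on chromosome 12, lay between 462 and 2536 in the low group and 329 and 1004 in the high group (log2 difference -0.99 ± 0.21, limma adjusted p = 0.12). The B cell receptor component Cd79b differed by -0.62 ± 0.28 and the light chain gene Igkc by -0.65 ± 0.34 (limma unadjusted p of 0.0356 and 0.0668). The summed level of Cd79a, Cd79b and Ms4a1 was 215 to 1438 in the low group (median 418) and 145 to 586 in the high group (median 288.5). With a score of these 3 genes as a covariate, an alternative added after the values were seen, Ighg2c passed and Ighm passed too (-0.62, limma adjusted p = 0.0482, against 0.0141 to 0.9999 over its alternatives).

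Gm266, a protein-coding gene 3 measured genes before Ckb, was lower in the high group. Its values were 15 to 48 in the low group (median 35) and 1 to 30 in the high group (median 6). BXD6, BXD48 and BXD77, with 16, 30 and 19, were the strains of the high group that reached into the low range. The log2 difference was -2.04 ± 0.34 (SE, adjusted p = 0.00999 in limma). It did not pass without BXD21, BXD36 and BXD40 (-1.85, limma adjusted p = 0.174) or in the RwwJ strains alone (-1.16, 0.597), against a range of 0.000117 to 0.597 over its alternatives.

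A530016L24Rik, a protein-coding gene 11 measured genes after Ckb, was the only gene called higher. It lay between 32 and 58 in the high group (median 51) and between 4 and 42 in the low group (median 16). The high strains lay close together, with BXD11 lowest at 32, whereas the low strains spread over a wide range, with BXD34 highest at 42. The log2 difference was 1.58 ± 0.29 (SE, adjusted p = 0.0313 in limma). The adjusted p was 0.00868 to 0.0774 when 1 strain was left out in turn and passed in 7 of 25 such fits, while Ighg2c and Gm266 passed in 25 of 25. A530016L24Rik also did not pass in the TyJ strains alone (limma adjusted p = 0.697), in the RwwJ strains alone (0.514), without BXD48 (0.059) or without BXD21, BXD36 and BXD40 (0.193).

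The next genes by p were again on chromosome 12 and did not pass (adjusted p of 0.12 in limma for each). They are named here after their values were seen. Slc25a47, a mitochondrial carrier gene, had 17 to 66 in the low group and 12 to 35 in the high group (-0.97 ± 0.20). Hhipl1 had 27 to 74 and 13 to 42 (-0.86 ± 0.18). Apopt1, 3 measured genes after Ckb, which encodes a mitochondrial protein, had 462 to 766 and 620 to 918 (0.40 ± 0.08). For Slc25a47 the strains on the wrong side were BXD13 and BXD87, and for Hhipl1 BXD11, BXD48 and BXD87. Apopt1 passed with the strain origin as a covariate (0.42, limma adjusted p = 0.0273), with array weights (0.0073) and with the B cell score (0.0482), against a range of 0.00733 to 0.9999 over its alternatives. Without BXD87, which also stood apart at Ighg2c, 7 genes passed in place of 4, and the 3 that joined were Slc25a47, Hhipl1 and Ighm.

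**Figure D2:**
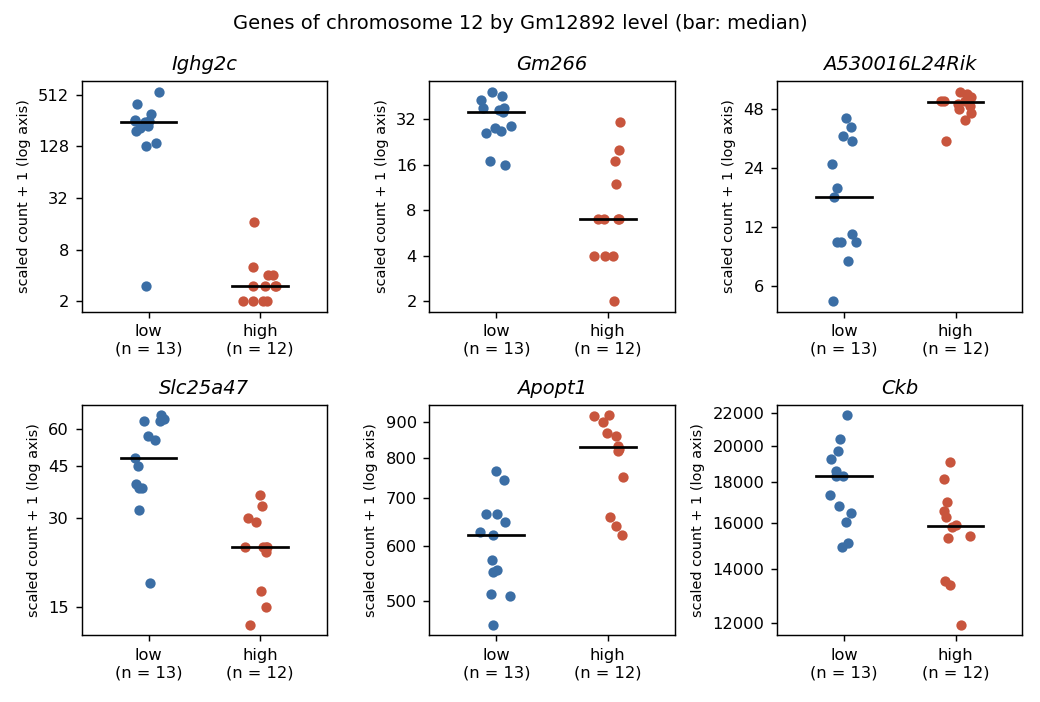
Scaled counts plus 1 (log axes) of 6 genes of chromosome 12 in the strains with low (n = 13) and high (n = 12) Gm12892, 1 point a strain, with the median as a bar. Ighg2c, Gm266 and A530016L24Rik passed the test; Slc25a47, Apopt1 and Ckb did not.

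Genes with a small p were more frequent on chromosome 12 than on any other chromosome with over 5 genes tested. There, 51 of 543 genes had an unadjusted p under 0.05 (9.39%), against 2.51% to 6.85% on the other autosomes and X and 4.66% over all genes. On the Y chromosome it was 1 of 5 genes. Of the 15 genes with an unadjusted p under 0.001, 10 lay on chromosome 12. On chromosome 4, where Gm12892 itself lies, the share was 3.48%.

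**Figure D3:**
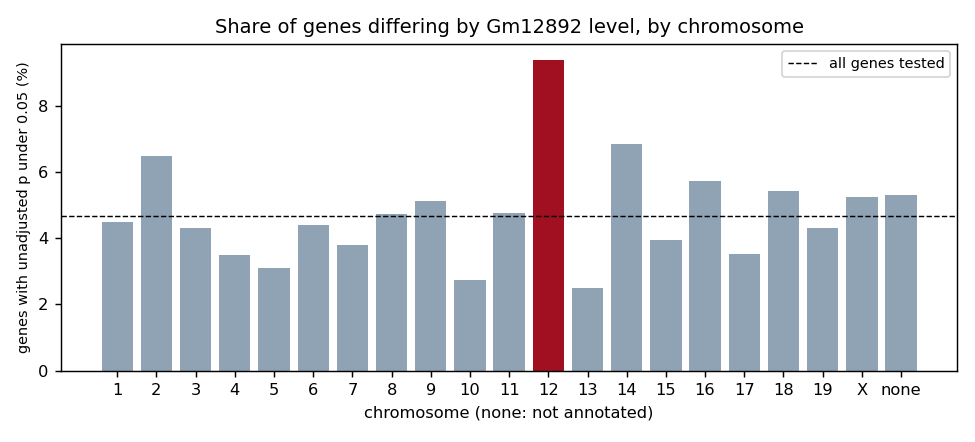
Percent of the genes tested on each chromosome that had an unadjusted p under 0.05 between the strains with high and low Gm12892 (bars from 0); the dashed line is the share over all genes, 4.66%. Chromosome 12 has 9.39%; the Y chromosome, with 5 genes, is left out.

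Small p values were counted among the neighbours of Ckb and of Gm12892. Over all genes 0.0248% passed and 4.66% had an unadjusted p under 0.05. At the first share, a set of 40 genes would most often hold 0 that passed. Of the 20 measured genes on each side of Ckb, 2 of 40 passed, and 10 of 40 (25%) had an unadjusted p under 0.05, of which 6 were higher and 4 lower in the high group. Of the 20 on each side of Gm12892, 0 of 40 passed and 1 of 40 (2.5%) had an unadjusted p under 0.05. That gene was Mycl, a member of the Myc family of transcription factors, with a log2 difference of 0.43 ± 0.18 (named after its values were seen). The nearest genes to Gm12892 were Rlf, at 486 to 816 in the low group and 530 to 779 in the high group (0.00 ± 0.08), and Ppt1, a lysosomal thioesterase gene, at 1870 to 3031 and 1923 to 2887 (-0.03 ± 0.08).

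Neither of the 2 genes next to Ckb passed the test. Mark3, a kinase gene just before Ckb, had 1166 to 1360 in the low group and 1151 to 1384 in the high group (-0.01 ± 0.04). Trmt61a, a tRNA methyltransferase gene just after it, had 297 to 461 and 248 to 391 (-0.23 ± 0.07, limma unadjusted p = 0.00382, adjusted p = 0.968). Further genes within 20 places had unadjusted p values under 0.05 in either direction: Kif26a, a kinesin family gene, differed by 0.62 ± 0.17, Exoc3l4 by 0.55 ± 0.15, Mok, a protein kinase gene, by 0.37 ± 0.11, Bag5, a chaperone regulator gene, by -0.10 ± 0.04 and 1700001K19Rik by -1.01 ± 0.27. The abundant neighbours Klc1, a kinesin light chain gene at 36997 to 49658 scaled counts, and Eif5, a translation initiation factor gene, differed by -0.06 ± 0.06 and -0.06 ± 0.04. Gm266 and A530016L24Rik, which passed, thus lay among neighbours that did not pass and whose differences had either sign.

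Along chromosome 12 the genes of small p lay in its last stretch. From 100 measured genes before Ckb to the end of the chromosome, 33 of 146 genes (22.6%) had an unadjusted p under 0.05, 17 higher and 16 lower, and 3 passed. In the rest of the chromosome it was 17 of 396 (4.29%), and 0 passed. Over the genes of all chromosomes 4.66% had such a p and 0.0248% passed. The boundary was chosen after the values were seen. Genes of 1 chromosome in 1 strain are inherited in blocks and are not independent.

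**Figure D4:**
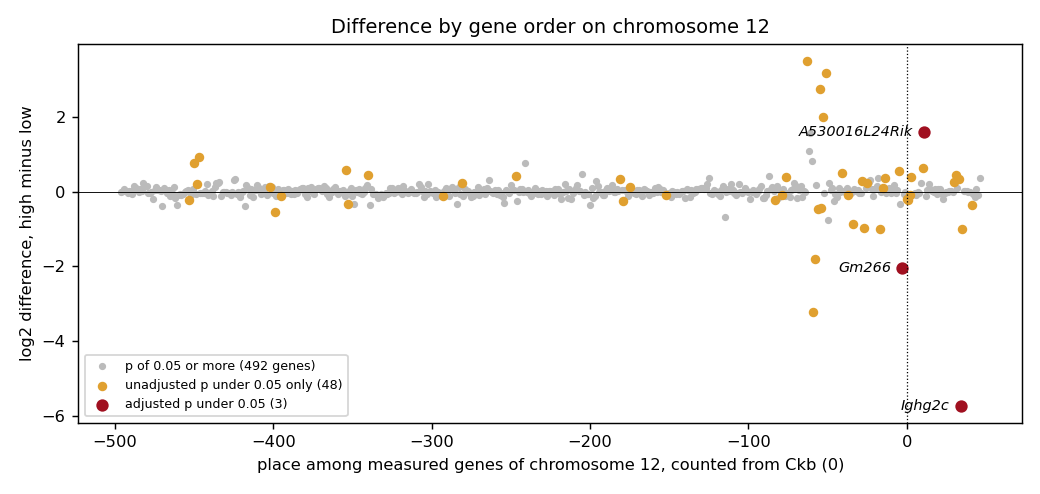
Log2 difference, high minus low Gm12892, of the genes tested on chromosome 12 by their place in gene order from Ckb (0, dotted line); red points passed the test, orange points had only an unadjusted p under 0.05. The red points are Gm266, A530016L24Rik and Ighg2c, and orange points are densest from place -83 to the end.

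The Serpina genes, a cluster of serine protease inhibitor genes from place -63 to place -49, were examined over all strains and within the TyJ strains. They are near-identical copies in part, so their values are uncertain. None of the 15 tested passed over all strains, and 8 had an unadjusted p under 0.05, 4 higher and 4 lower. Over all genes the share that passed was 0.0248%, and the share with such a p was 4.66%. It was 22.6% from 100 measured genes before Ckb to the end of the chromosome, a stretch that holds these 15. Serpina3h, annotated as a transcribed pseudogene, was at 40 to 67 scaled counts in 14 of the strains, and 422 to 855 were its values in the other 11. Its log2 difference over all strains was 1.99 ± 0.59 (limma unadjusted p = 0.00243, adjusted p = 0.968).

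In the TyJ strains Serpina3h followed the split without exception. It lay at 44 to 67 in the 9 low strains and at 463 to 855 in the 7 high strains. In the RwwJ strains it followed the split in 4 of 9: BXD68 and BXD87 had the high level of Serpina3h with low Gm12892, and BXD44, BXD73 and BXD89 the reverse. The difference of the contrast between RwwJ and TyJ strains was -4.54 ± 0.90 (SE, limma unadjusted p = 3.566e-05, adjusted p = 0.381). No gene passed in that test (0%), where 433 had an unadjusted p under 0.05 (2.68%). By the same count, Ighg2c followed the split in 16 of 16 TyJ strains and in 8 of 9 RwwJ strains, all but BXD87. The levels of both genes were separated at 100 scaled counts after the values were seen.

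**Figure D5:**
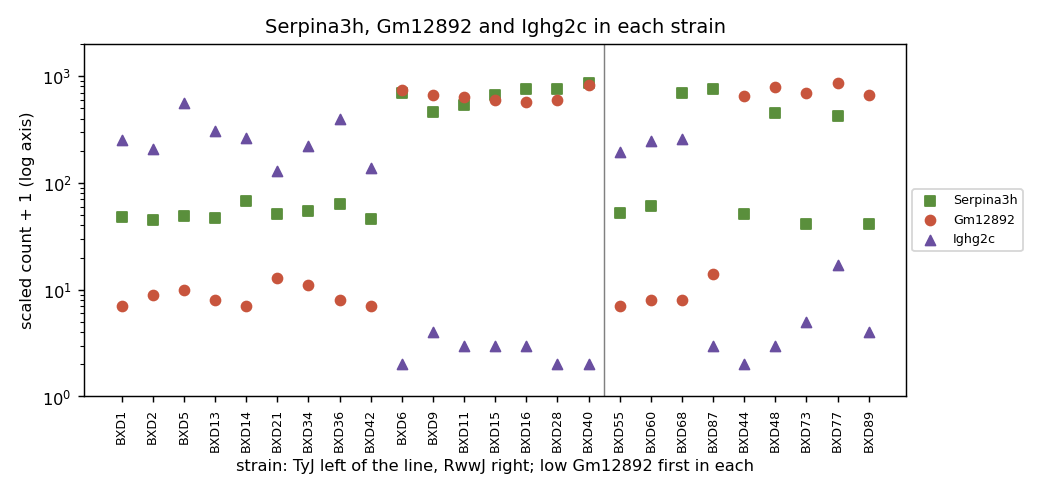
Scaled counts plus 1 (log axis) of Serpina3h, Gm12892 and Ighg2c in each strain, TyJ strains left of the line and RwwJ strains right of it, low Gm12892 first in each. Left of the line Serpina3h is high and Ighg2c low wherever Gm12892 is high; right of it Serpina3h departs from the split in 5 strains and Ighg2c in BXD87.

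Tested within the TyJ strains alone, 11 genes passed (0.0681%), of which 10 lay on chromosome 12, and 262 had an unadjusted p under 0.05 (1.62%). They were Ighg2c, Gm266, Slc25a47, the unnamed identifier and 7 Serpina genes (Serpina1b, Serpina1e, Serpina11, Serpina3f, Serpina3g, Serpina3h and Serpina3m). The 7 were named after the values were seen. Within the RwwJ strains 0 genes passed with limma (0%), although 1380 had an unadjusted p under 0.05 (8.54%). The RwwJ set had 9 strains, and spinal cord level differed between its groups in more strains than BXD48. The spinal cord gene Slc6a5 was 337 in BXD44, 1502 in BXD48, 132 in BXD77 and 231 in BXD89, all of the high group. It was 4 in BXD73 of that group and 2 to 5 in the low RwwJ strains. Its log2 difference was 5.30 in the RwwJ and 1.05 in the TyJ strains. The part of spinal cord level in the RwwJ fit was not tested. For Ighg2c the log2 difference was -6.57 in the TyJ and -4.09 in the RwwJ strains, for Gm266 -2.59 and -1.16, and for A530016L24Rik 1.47 and 1.86, so that the sign was the same in both sets for each.

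No gene of creatine metabolism passed the test, beside 0.0248% of all genes, so 0 in a list of 13 says little of the list. An unadjusted p under 0.05 was reached by 4.66% of all genes. Of the 13 genes of creatine kinases, creatine synthesis and transport and adenylate kinases, 0 passed, Ckb was the only 1 with an unadjusted p under 0.05, 6 had positive and 7 negative differences, and the median was -0.02, beside -0.00062 over all genes. The mitochondrial creatine kinase gene Ckmt1 lay at 6999 to 12191 in the low group and 5884 to 11299 in the high group (-0.02 ± 0.09). The muscle creatine kinase gene Ckm ranged from 47 to 7031 and from 48 to 5362 (-0.43 ± 0.74), and skeletal muscle markers varied as widely, from a sum of 370 to 44985 in the low and 438 to 30030 in the high group. Of creatine synthesis, Gamt, the methyltransferase of its last step, had 645 to 1259 and 742 to 1263 (0.20 ± 0.10) and Gatm, the enzyme before it, 2584 to 4181 and 2310 to 4014 (0.01 ± 0.09). The creatine transporter gene Slc6a8 had 928 to 1446 and 1025 to 1666 (0.11 ± 0.07). Adenylate kinase genes, which also interconvert adenine nucleotides, differed by -0.09 ± 0.06 (Ak1), 0.01 ± 0.04 (Ak3), 0.18 ± 0.16 (Ak4), -0.02 ± 0.05 (Ak5) and -0.09 ± 0.10 (Ak6). Of the 16 glycolysis genes 0 passed, beside 0.0248% over all genes. The aldolase gene Aldoc had the smallest p of these (0.35 ± 0.15, limma unadjusted p = 0.0259).

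Of the lists of neurons and other cells of the ganglion, 0 members passed. Over all genes 0.0248% passed, so 0 in lists this short says little of these cells. The median differences were 0.04 for 10 pan-neuronal genes, -0.04 for 6 genes of peptidergic and 0.08 for 8 genes of non-peptidergic nociceptors, and -0.02 for 9 genes of large-diameter neurons. Prph, a neuronal intermediate filament gene, differed by -0.13 ± 0.07, Syt1 by 0.13 ± 0.09, Tac1, which encodes substance P, by -0.13 ± 0.13, Calcb by -0.10 ± 0.12, the sodium channel gene Scn11a by 0.20 ± 0.12, Mrgprd by 0.26 ± 0.18 and the neurotrophin receptor genes Ntrk2 and Ntrk3 by 0.14 ± 0.06 and 0.28 ± 0.17. At each of these genes the low and high strains overlapped.

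Glial and connective tissue genes had somewhat larger differences, with 0 called beside 0.0248% over all genes. The potassium channel gene Kcnj10 had 1043 to 2112 in the low group and 1123 to 6948 in the high group (0.62 ± 0.21), and the myelin gene Mag differed by 0.70 ± 0.27. Kcnj10 and Mag are also expressed by glia of the central nervous system. The matrix genes Col1a2 and Col3a1 differed by -0.35 ± 0.15 and -0.44 ± 0.20. Smaller differences than those of Kcnj10 and Mag were listed for Cdh5 of endothelium (-0.20 ± 0.19), Pdgfrb of mural cells (-0.10 ± 0.11), and Cd68 and Aif1 of macrophages (-0.22 ± 0.16 and 0.10 ± 0.20). These genes are the members of smallest p in their lists. The list medians were 0.16 for satellite glia, -0.11 for myelinating Schwann cells and -0.21 for fibroblasts and matrix. For endothelium and mural cells the median was -0.10 and for macrophages 0.03. Among genes of lymphocytes and class II antigen presentation, the B cell surface gene Ms4a1 differed by -0.65 ± 0.36.

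The list with the largest median difference was that of the spinal cord, at 1.798 over 8 genes beside -0.00062 over all genes. Of its members 8 of 8 had positive differences, 7 had an unadjusted p under 0.05 (beside 4.66% over all genes) and 0 passed (beside 0.0248%). Slc6a5, the glycine transporter gene of inhibitory spinal neurons, lay at 1 to 54 in the low group (median 5) and at 4 to 1502 in the high group (median 126.5), with a log2 difference of 2.63 ± 0.88 (limma adjusted p = 0.968). Opalin, an oligodendrocyte gene, had 0 to 16 and 0 to 174 (2.01 ± 0.78). Slc32a1 and Opalin were at 0 in some strains of both groups, and the summed level of the list was above the low median in 8 of 12 high strains. With the skeletal muscle, spinal cord and erythroid scores as covariates, 231 genes had an unadjusted p under 0.05 (1.43%) in place of 752, and 4 passed (0.0248%). Ighg2c (-5.97), Gm266 (-2.61) and the unnamed identifier were among them, Ptprn2 of chromosome 12 joined, and A530016L24Rik did not pass (1.76, limma adjusted p = 0.18, against 0.00842 to 0.697 over its alternatives).

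Blood, muscle and fat genes had 0 called, beside 0.0248% over all genes. The erythroid genes Slc4a1, the anion exchanger of red cells, and Hbb-bs, a globin gene, differed by -0.66 ± 0.32 and -0.54 ± 0.28, and the summed erythroid level was 8228 to 54107 in the low and 6557 to 28459 in the high group. The muscle genes Actn3 and Myh4 differed by -0.65 ± 0.54 and -0.82 ± 0.72. The fat genes Lep and Fabp4 differed by 0.84 ± 0.50 and 0.21 ± 0.35. The part of tissue content in the differences on chromosome 12 was tested only as covariates in the fit, as given for the spinal cord list and the B cell genes.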

How the data were processed

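RNA-seq of dorsal root ganglia was given as 1 table of 16220 Ensembl genes by 25 strains, with 25 columns used and 0 left out. Per the submitters' processing notes, the authors used CASAVA 1.8.0, TopHat2 2.0.9 and HTSeq, with the builds NCBIM37 and mm9. The values are a normalized score deposited by the authors: whole numbers that look like read counts scaled to a common upper quartile (1478 in each library, to the nearest whole number) and rounded. They are called scaled counts, and no count model was fitted. The reads behind a library were estimated, in 23 of 25 libraries, from the regular spacing of low values. No columns were identical (0).

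Names, chromosomes, gene order and sequences came from GENCODE M21, a later build than that of the table, so no coordinates are printed. It holds 15697 of the identifiers and lacks 523. Transcripts were compared with blastn 2.17.0 (E value 1e-20) and aligned with Biopython 1.88.

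Strains were split at a Gm12892 value of 100. The 16151 other genes with a mean of at least 10 (68 were left out) were compared on log2(scaled count + 1) by a two-sided limma test (3.58.1, trended prior, R 4.3.3) with Benjamini-Hochberg adjustment at 0.05 over all genes; this scale understates changes of low genes. The permutation test of Ckb used 100000 resamples. Scripts were tested on simulated data. Likeness to Gm12892 is the number of the 25 strains on the wrong side of the best single threshold for a gene. Score covariates are means of log2(scaled count + 1) over a list.

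Named genes were Gm12892, the creatine list, called genes, the genes next to Ckb and Gm12892, and for each list the called members or otherwise the 2 of smallest p; genes without a symbol are counted only, some genes that this rule takes are not reported here, and other names are said to be chosen after their values were seen (the other Ckb neighbours, Klc1 and Eif5 too). The split and the lists were chosen with earlier results of these data known. The alternatives are given in the closing section.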

Additional observations from a re-analysis of the deposited data

Results flagged for a closer look

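Of 5 genes (Gm12892, Ckb, Ighg2c, Gm266 and A530016L24Rik) examined on the log2 scale in the 4 groups formed by the split and the laboratory code (20 groups in all), 3 had 1 strain far from the others of its group. Chance marks about 1 group in 20. Ighg2c was 2 in BXD87, whereas the other RwwJ strains with low Gm12892 had 194 to 254. Gm266 was 15 in BXD5, and the other TyJ strains with low Gm12892 had 27 to 48. A530016L24Rik was 32 in BXD11, and the other TyJ strains with high Gm12892 had 49 to 58.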

How the results depend on the processing

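With 1 library a strain the strains were left out in turn. No paired analysis was possible because the labels give no replicate numbers shared between the 2 sides of the split. The count of genes called was 4 of 16151 (0.0248%), with 3 on chromosome 12, 2 among the neighbours of Ckb and 0 list members. List members in this section leave out the B cell and immunoglobulin list, which was added after the values were seen. Of that list, Ighg2c was among the 4 called. The count of genes called was 4, with all 4 genes shared, under log2(value + 10), no filter on the mean, median-of-ratios scaling and a robust prior. Thresholds of 50 and 300 give the same groups and so the same fit, and show nothing of stability. With a mean of at least 50 it was 1, with 1 on chromosome 12 and 0 neighbours, since the other 3 genes have lower means. With array weights it was 24 (19 higher, 5 lower), with 8 on chromosome 12, 4 neighbours and 1 list member, Slc6a5. Ighg2c and Ighm of the B cell and immunoglobulin list, which is not in that count, passed too (Ighm: limma adjusted p = 0.0141). With array weights 0.149% of genes passed and 2568 (15.9%) had an unadjusted p under 0.05, against 752 (4.66%) in the main fit. So p was lower over all genes in that fit and not only at those named. The cause of the higher count of genes called was not tested. With the strain origin as a covariate it was 5, as Apopt1 joined. In the TyJ strains it was 11, with 10 on chromosome 12 and 1 neighbour, and in the RwwJ strains, which are fewer, 0, 0 and 0. With the 3 tissue scores as covariates 1 neighbour passed, and without BXD48 also 1 (3 genes in all). Without BXD21, BXD36 and BXD40 it was 2, with 1 on chromosome 12 and 0 neighbours. With the B cell score, added after the data were seen, it was 6, with 5 on chromosome 12. Leaving out 1 strain gave 3 to 7 genes, 2 to 6 on chromosome 12 and 1 to 2 neighbours, the highest without BXD87. The log2 difference of Ckb was -0.22 to -0.16 with 1 strain left out and -0.32 to -0.01 under the other alternatives, without passing in any.

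Among the genes reported, signs turned only for those that had not passed. With array weights these were Ckmt1 (0.00833), Ak5 (0.00234) and Rlf (-0.00587); with strain origin, Rlf (-0.00793). In the TyJ strains they were Gatm (-0.0699), Mark3 (0.0179), Rlf (-0.00914), Calcb (0.00877), Aif1 (-0.00938) and Fabp4 (-0.081). In the RwwJ strains they were Ckmt1 (0.062), Ak5 (0.015), Rlf (-0.00577), Tac1 (0.087), Serpina3f (-0.46), Serpina3h (-0.87) and Bag5 (0.00084). With the tissue scores they were Gatm (-0.047), Ak4 (-0.042), Mark3 (0.038), Rlf (-0.0496), Ppt1 (0.00115), Scn11a (-0.051), Ms4a1 (0.26), Pgk1 (0.0056) and Syt1 (-0.11). Without BXD48 it was Ak3 (-0.00086), and without BXD21, BXD36 and BXD40, Rlf (-0.037). With the B cell score they were Rlf (-0.039), Ppt1 (0.00295) and Ms4a1 (0.0714). Ms4a1 is itself part of that score, so a value near 0 was largely fixed in advance. With 1 strain left out, the ranges that crossed 0 were -0.000401 to 0.185 (Aif1), -0.011 to 0.021 (Ak3), -0.045 to 2.1e-05 (Ak5), -0.054 to 0.032 (Ckmt1), -0.031 to 0.53 (Ckmt2), -0.016 to 0.057 (Gatm), -0.022 to 0.0018 (Mark3) and -0.042 to 0.039 (Rlf).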
